A study of Mus musculus with 72 samples.

Results

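Contraction of the colon rests on the smooth muscle of its outer wall, and 35 genes of that contractile apparatus were followed in the colon of mice with chemically induced colitis. The genes were listed by name from their roles in smooth muscle, with earlier results of these data known: filament proteins, regulators of the thin filament, kinases and signalling partners, cytoskeletal and adhesion proteins, calcium and potassium handling proteins, muscarinic receptors and regulators of the smooth muscle programme. Of the 35 genes, 33 had a probe set annotated to that gene alone. Chrm2, a muscarinic receptor, and Rbpms2, an RNA-binding protein of smooth muscle, had none and were not analysed here. Chrm3, the other muscarinic receptor, was listed at the floor of the table, 2.08 on the log2 scale, on all 72 arrays, and did not pass the filter on dim genes. The remaining 32 genes passed it and were tested among 12534 genes, out of 18193 with a probe set.

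Expression had been measured on 72 Affymetrix arrays, 1 per mouse, in wild type Balb/c mice, in colon that was rolled and frozen before a piece was cut for RNA. Mice given the combination (n = 15) received TNFR-Ig at 0.3 mg/kg and the antibody mP2D10 against TWEAK at 10 mg/kg, anti-TWEAK mice (n = 14) received the antibody alone at that dose, and TNFR-Ig mice (n = 12) received TNFR-Ig alone at 0.3 mg/kg and no antibody. Control IgG mice (n = 15) received an IgG2a antibody against human CD20 at 10 mg/kg, and untreated mice (n = 8) received no agent. All of these 64 mice had colitis: TNBS, trinitrobenzene sulfonic acid, a hapten that provokes inflammation, was put into the rectum at 70 µg per g body weight, 1 hour after any intraperitoneal injection, and they were killed on day 4. Naive mice (n = 8) had no colitis by title and source name. TNFR-Ig is a soluble TNF receptor fusion protein that binds TNF, and TWEAK is a related cytokine. The animals' age was not given in the sources used here, and TNFR-Ig mice differ from control IgG mice by the control antibody as well as by TNFR-Ig.

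The colitic groups came from 2 experiments, labelled 7 (34 arrays) and 10 (38 arrays), and naive mice belonged to experiment 10 only. The experiments also lay in separate array runs, apart from 2 combination arrays of experiment 7 that ran with experiment 10. The first naive array carries a treatment label that contradicts its title, and without it 26 of the 32 genes were called in the first comparison below, against 27 with it. Array medians lay between 4.60 and 4.77, no pair of arrays was identical, and the gap between the 3 prime and 5 prime probe sets of Actb, which widens as RNA degrades, is given below where it moved with a group. Skeletal muscle was present in variable amount: the mean of 18 skeletal muscle markers, led by Mylpf, Myh1 and Tnnc2, ran from 3.35 to 12.0 across the arrays. The tissue matched its label: the mean of 10 epithelial markers was between 13.84 and 14.32 on every array, and smooth muscle actin and myosin were bright, as described below. Exocrine pancreas signal was also present in variable amount: the mean of 5 pancreas markers, led by Cela3b, Prss2 and Cpb1, ran from 2.08 to 13.33 across the arrays.

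Smooth muscle contracts when calcium binds calmodulin and activates myosin light chain kinase, which phosphorylates the regulatory light chain of myosin so that it pulls on actin. Calcium enters through voltage-gated channels and is released from and pumped back into the sarcoplasmic reticulum, and cGMP-dependent signalling and potassium channels oppose contraction. In differentiated smooth muscle many of these genes are driven by serum response factor (SRF) and its partner myocardin, which act at a DNA element called the CArG box. In colitis the colon wall is known to lose contractile force.

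Since many of the genes moved together, their promoters were searched for the CArG box, the SRF element with 6 A or T between CC and GG, which reads the same way on both strands. RefSeq windows (GRCm38.p6) of 300 bases, from 250 before to 50 after the annotated start, were held for 30 of the 35 genes. Actg2, Atp2a2, Myocd, Tagln and Myh11 had no entry. The exact element was found in 3 of the 30 (10.0%), against 488 of 27025 genes with a window (1.81%). The 3 sequences show the element in capitals: 161 bases before the start of Myl9, which encodes the regulatory light chain of myosin (chr2:156775263-156775352, plus strand), 35 and 109 bases before 2 annotated starts of Ldb3, which encodes a Z-line protein (chr14:34588682-34588756, minus strand), and 62 bases before the start of Filip1l, which encodes a protein related to a filamin partner (chr16:57549140-57549229, plus strand).
Myl9: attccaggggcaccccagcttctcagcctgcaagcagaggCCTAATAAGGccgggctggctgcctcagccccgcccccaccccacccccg
Ldb3: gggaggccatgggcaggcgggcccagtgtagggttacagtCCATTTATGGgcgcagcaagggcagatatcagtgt
Filip1l: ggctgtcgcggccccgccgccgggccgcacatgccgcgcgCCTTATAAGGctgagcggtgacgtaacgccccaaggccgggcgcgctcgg
A match in this window is a description of the letters only. Of the 3 genes, Myl9 and Ldb3 fell in untreated colitis and Filip1l did not pass the test, as given below.

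The first comparison, of untreated colitic with naive mice, asks how far the contractile genes depart from their healthy level on day 4. Of the 32 genes, 26 fell, 1 rose and 5 did not pass the test (limma, all 72 arrays with a term for experiment, Benjamini-Hochberg adjusted p under 0.05 over all genes). Colitis moved much of the transcriptome: 47.8% of all genes tested were called, 22.2% as higher and 25.6% as lower, against 84.4% of the smooth muscle genes. The median log2 change of the 32 genes was -0.42, and that of all genes was -0.01. In 16 genes every untreated mouse lay below every naive mouse, and in 1, Atp2a2, above, where the groups did not overlap for 8.82% and 7.05% of all genes in those directions. The mean level of the 32 genes on an array was 10.89 to 11.35 in untreated mice and 11.49 to 11.64 in naive mice. Inside experiment 10, the experiment that holds both groups, the same fit by experiment called 26 genes lower and 1 higher, with a median of -0.54 and 41.9% of all genes called. There 23 genes were wholly lower and 1 wholly higher, as for 14.8% and 9.69% of all genes. Because naive mice were in experiment 10 alone, fitted changes are adjusted for experiment and can differ from the plain difference of group means. In whole tissue, fewer smooth muscle cells and less RNA per cell cannot be told apart.

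Of the 7 genes that handle calcium and potassium, 5 fell and 1 rose, and Pln and Casq2 had the largest falls of the 32 genes on their brightest probe sets. Pln encodes phospholamban, which restrains the calcium pump of the sarcoplasmic reticulum. Its log2 level was 7.48, 8.58 and 10.04 in untreated mice (lowest, median, highest), against 10.43, 10.60 and 10.81 in naive mice. The groups did not overlap, and untreated mice were far more spread than naive mice, with SDs of 0.84 and 0.12. The fitted change was -1.67 ± 0.41 (SE), 3.18-fold lower, with an adjusted p of 0.00058 in limma. Casq2, calsequestrin, which stores calcium in the reticulum, had 5.95, 7.04 and 7.93 in untreated mice, against 8.41, 8.78 and 8.85 in naive mice, again with no overlap. It fell 2.84-fold (SE 0.35 on the log2 scale, adjusted p 0.00031 in limma). Ryr2, a calcium release channel of the reticulum, changed by -0.76 ± 0.21 and Cacna1c, the pore of the L-type calcium channel, by -0.63 ± 0.12. Kcnmb1, the regulatory subunit of the large-conductance potassium channel, had 4.65, 5.37 and 5.89 in untreated mice, against 5.73, 6.07 and 6.76 in naive mice. The 2 ranges overlapped at one end, and the change was -0.84 ± 0.17. Kcnma1, the pore of the same channel, did not pass, at 0.07 ± 0.05. Atp2a2, the calcium pump itself, was the one gene that rose: 13.96 to 14.08 in untreated mice and 13.85 to 13.96 in naive mice, a change of 0.10 ± 0.02, or 1.07-fold, on its brightest probe set.

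**Figure D1:**
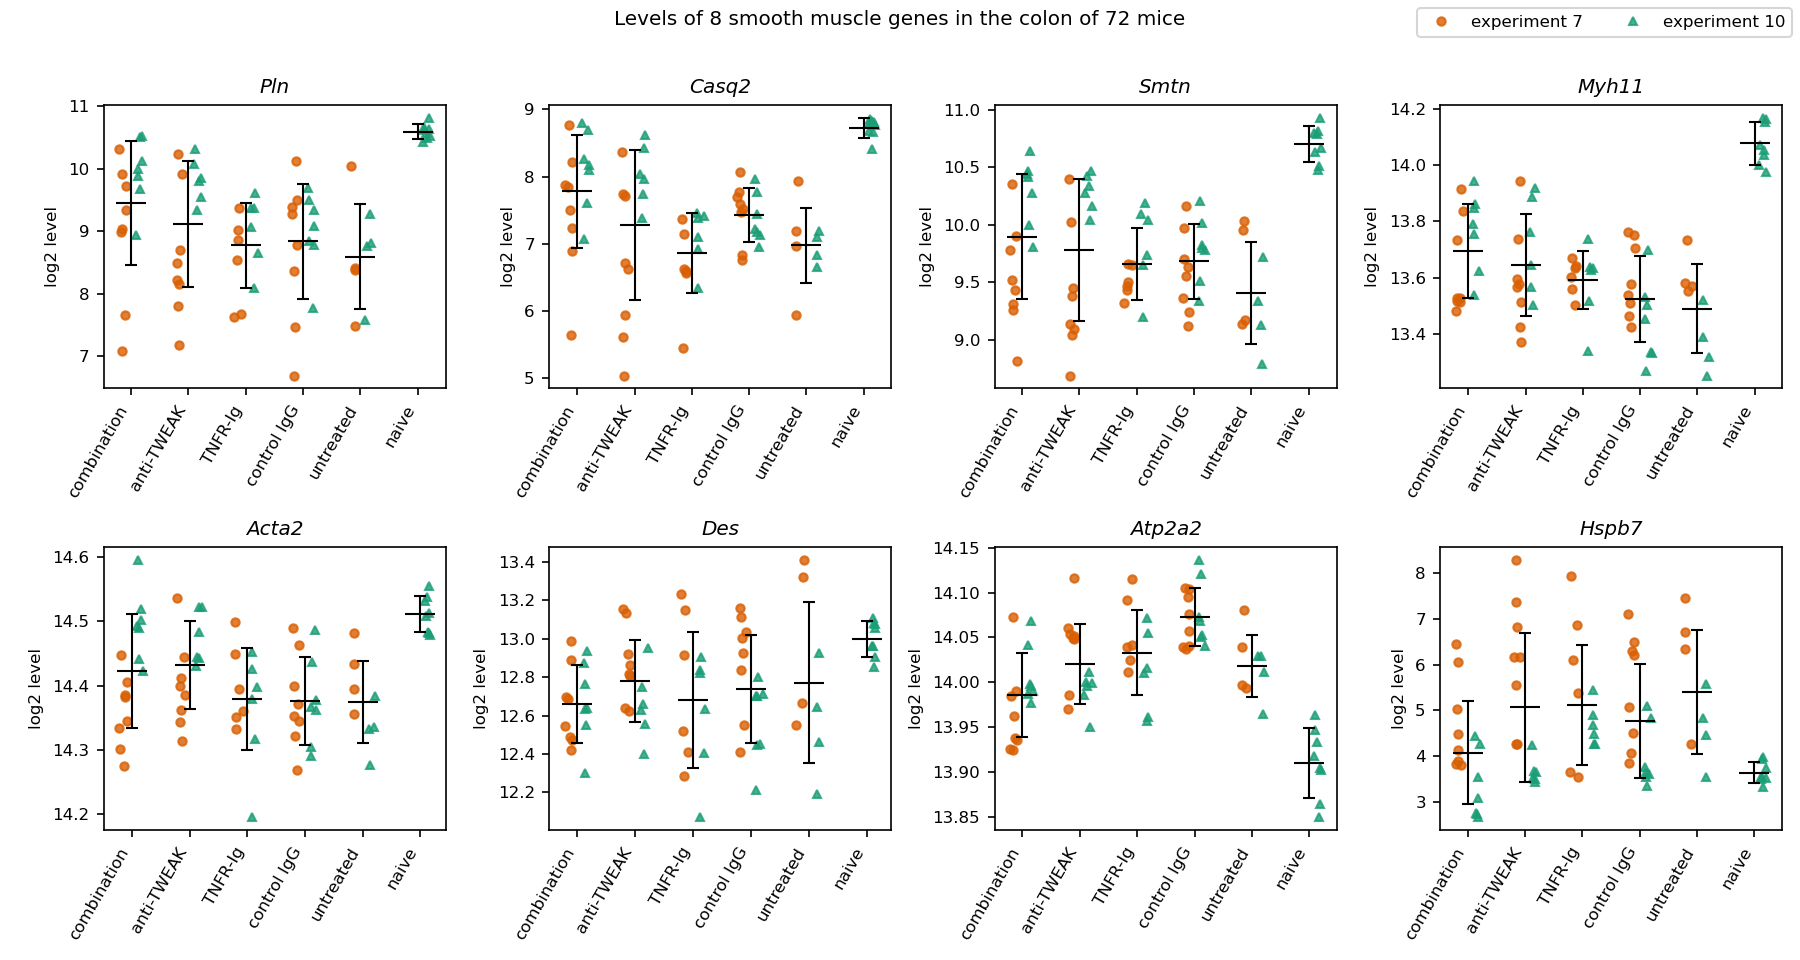
Log2 levels of 8 smooth muscle genes on each of the 72 arrays, by group (x axis), with circles for experiment 7 and triangles for experiment 10; the bar and whiskers are the group's mean ± SD. Pln, Casq2, Smtn and Myh11 of the 8 naive mice lie above all untreated mice, Atp2a2 of the naive mice lies below all of them, and Hspb7 is high in part of the experiment 7 mice of every colitic group.

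All 6 filament genes fell, by smaller amounts. Acta2, the alpha actin of smooth muscle, had log2 levels of 14.28, 14.37 and 14.48 in untreated mice and 14.48, 14.51 and 14.55 in naive mice, and changed by -0.12 ± 0.04. Actg2, the gamma actin typical of gut muscle, had 13.84, 14.26 and 14.56 in untreated mice and 14.35, 14.46 and 14.51 in naive mice, with overlapping groups and a change of -0.22 ± 0.07. Myh11, the heavy chain of smooth muscle myosin, had 13.25, 13.54 and 13.73 in untreated mice and 13.98, 14.06 and 14.17 in naive mice. Its groups were fully apart and its change of -0.59 ± 0.08, or 1.51-fold lower, had an adjusted p of 4.4e-09 in limma, the smallest of the 32 genes. Myl9, the regulatory light chain of myosin, fell by 0.49, and the tropomyosins Tpm2 and Tpm1, which lie along actin, by 0.28 and 0.08 on the log2 scale.

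Of the 5 regulators of the thin filament, 4 fell. Smtn, smoothelin, found in contractile smooth muscle, had levels of 8.79, 9.25 and 10.03 in untreated mice, against 10.48, 10.73 and 10.93 in naive mice, with no overlap, and changed by -1.08 ± 0.20 (adjusted p 1.3e-05 in limma). Cnn1, calponin, fell by 0.47, Lmod1, which nucleates actin filaments, by 0.41, and Tagln, transgelin, by 0.22. Cald1, caldesmon, did not pass, at 0.12 ± 0.06, and none of its 5 probe sets was called. The 3 signalling genes fell: Dmpk, a kinase, by 0.80, Mrvi1, a partner of the IP3 receptor under cGMP-dependent kinase, by 0.57, and Mylk, the myosin light chain kinase, by 0.23.

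Among the 10 cytoskeletal and adhesion genes, 8 fell. Itga8, an integrin subunit, changed by -0.89 ± 0.20, and no untreated mouse (7.27 to 8.04) reached a naive one (8.43 to 8.96). Synm, the intermediate filament protein synemin, changed by -0.85 ± 0.15 and Synpo2, an actin-bundling protein, by -0.84 ± 0.14. Pdlim3 and Ldb3, which bind alpha-actinin, fell by 0.54 and 0.43, Pgm5, a protein of adherens junctions, by 0.33, and Flna, filamin A, by 0.33. Des, desmin, the intermediate filament protein of muscle, was the most weakly called: 12.19, 12.66 and 13.41 in untreated mice lay on both sides of 12.85, 13.01 and 13.11 in naive mice, for a change of -0.32 ± 0.13 and an adjusted p of 0.038 in limma. Filip1l was at 0.17 ± 0.08 and did not pass. Hspb7, a small heat shock protein, ran from 3.55 to 7.45 in untreated mice and from 3.32 to 3.98 in naive mice, and its change of 0.98 ± 0.52 did not pass either (adjusted p 0.11 in limma). Myocd, the SRF partner, had 9.98, 10.32 and 10.51 in untreated mice and 10.16, 10.44 and 10.81 in naive mice. Its change of -0.19 ± 0.12 did not pass (adjusted p 0.19 in limma).

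**Figure D2:**
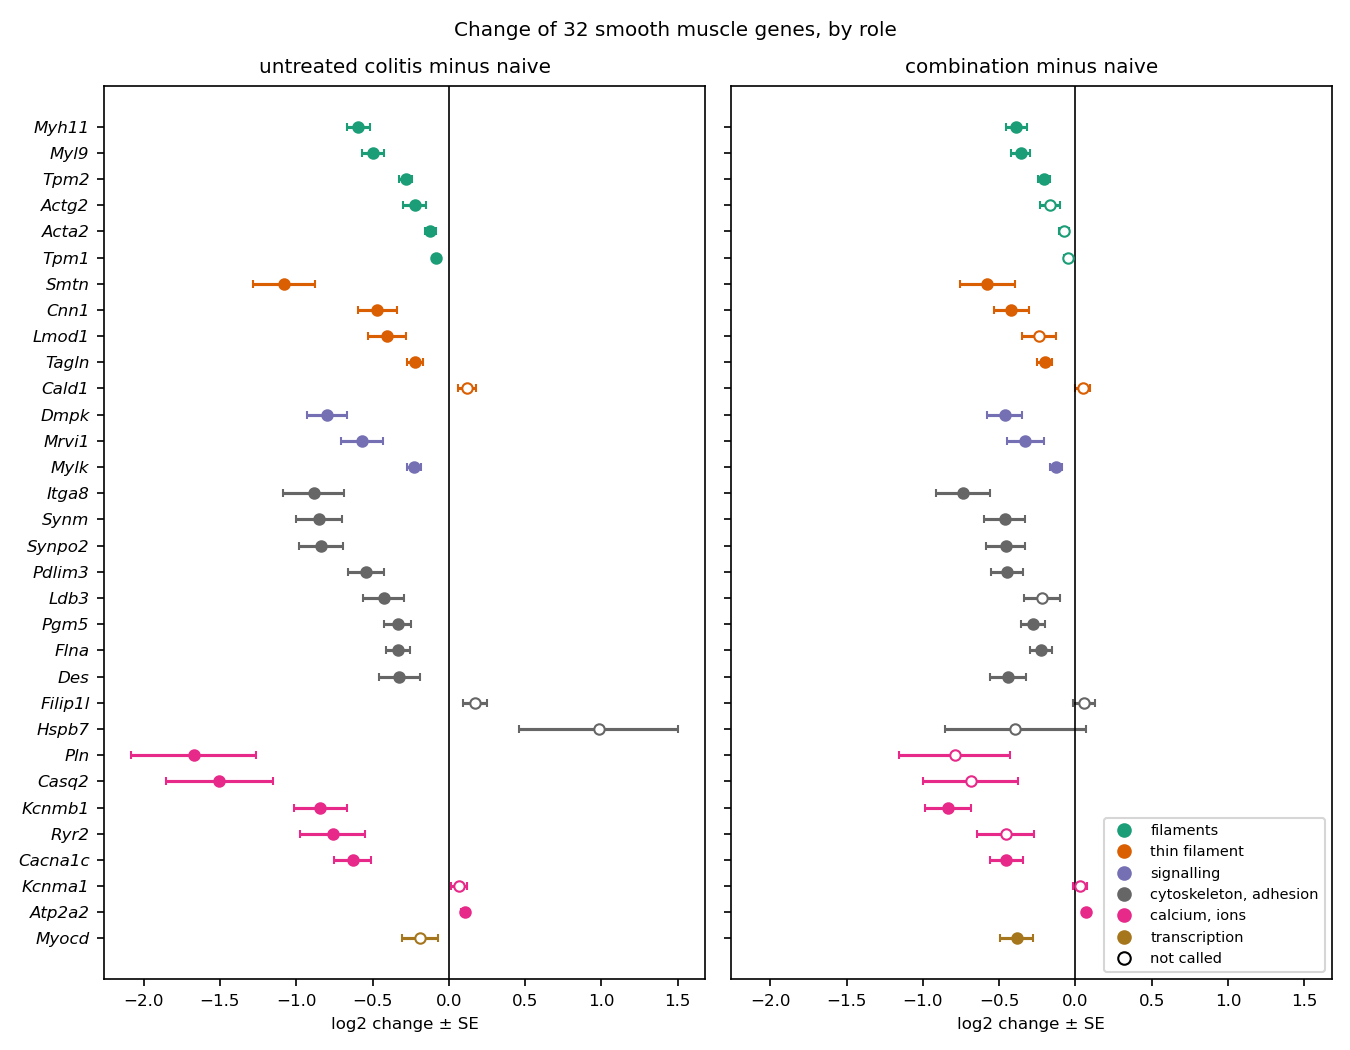
Fitted log2 change ± SE of the 32 genes, sorted by role, in untreated colitic against naive mice (left) and in combination against naive mice (right); filled points passed the test and open ones did not. On the left 26 genes are filled to the left of 0 and Atp2a2 to its right; on the right 19 are filled to the left and Atp2a2 to its right.

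The size of a gene's fall depended on which of its probe sets was read. The values above come from the probe set with the highest mean, and 16 of the genes had several tested. Over 67 tested probe sets of the 32 genes, 45 were lower, 1 was higher and 21 did not pass, with 45.2% of 22584 probe sets called in all. In 12 of the 16 genes a probe set of lower mean showed a larger change of the same sign. For Acta2 the changes were -0.12 ± 0.04, -0.86 ± 0.15 and -0.92 ± 0.19 on probe sets with mean levels of 14.41, 9.46 and 4.45. For Mylk they were -0.23, -0.62 and -1.74 at means of 14.00, 13.33 and 7.49, and for Myh11 -0.59 and -1.24 at 13.65 and 8.49. Tpm1 showed -0.08, -0.40 and -0.62, and Pln -1.67, -2.32 and -2.51, in the same order. The small changes of the actins and tropomyosins given above are thus those of probe sets at the upper end of the scale, and whether the scale limits them there was not tested. Atp2a2 was called both ways: its brightest probe set rose by 0.10, 2 others were at -0.19 and -0.44 and called lower, and the other 3 did not pass. Kcnma1 did not pass on its brightest probe set, but was lower on 2 others, at -0.43 and -0.83. Synpo2, in contrast, was called on its brightest probe set alone, the other 3 being at -0.30, 0.18 and 0.19 without passing. Kcnmb1 was likewise called only on its brightest probe set, the other being at -0.38 ± 0.22 without passing.

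**Figure D3:**
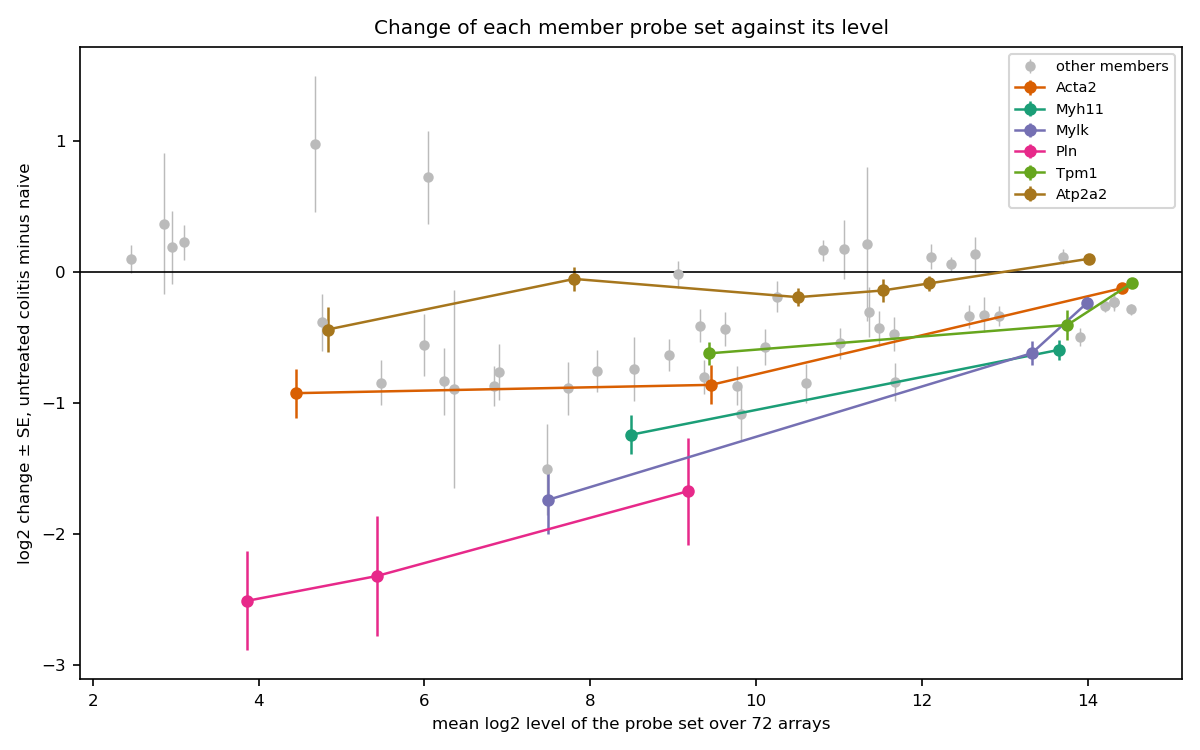
Log2 change ± SE in untreated colitic against naive mice (y axis) of each tested probe set of the smooth muscle genes, against its mean log2 level over the 72 arrays (x axis); lines join probe sets of one gene. For Acta2, Myh11, Mylk, Pln and Tpm1 the change is larger at lower levels, and for Atp2a2 it is 0.10 at the highest level and -0.44 at the lowest.

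Genes of contraction outside the 35 were read from a list of 50, of which 40 were tested. In untreated against naive mice 20 fell and 7 rose (67.5% called, all genes 47.8%), with a median of -0.17. The falls were led by Sgcd, a sarcoglycan of the membrane complex (-1.27 ± 0.27), Ppp1r14a, an inhibitor of myosin phosphatase (-1.01 ± 0.18), Ppp1r12b, a targeting subunit of that phosphatase (-0.86 ± 0.16), Cap2, which binds actin (-0.84 ± 0.22), and Prkg1, the cGMP-dependent kinase (-0.78 ± 0.15). The factor Srf also fell, by 0.36 (SE 0.07). The 7 that rose were Itga5, an integrin subunit (0.96 ± 0.24), Zyx, zyxin (0.96 ± 0.14), Cnn2, a calponin found outside muscle (0.76 ± 0.10), Tpm4, a tropomyosin (0.47 ± 0.05), and Itgb1, Actn1 and Rhoa at 0.12 to 0.25.

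Markers of other cells moved at the same time. All 6 tested neutrophil markers rose, with a mean level of 9.33 to 12.03 in untreated mice and 3.17 to 5.20 in naive mice, as did all 8 macrophage markers, 6 of 8 fibroblast, 5 of 6 endothelial and 5 of 7 pericyte markers, with 1 pericyte marker lower. Of 10 epithelial markers 7 fell, of 9 enteric neuron markers 4 fell and 1 rose, of 3 glial markers 2 fell, and of 4 markers of interstitial and PDGFRA-positive cells 2 fell and 1 rose. The part of these cells in the falls of smooth muscle genes was not tested. Of the 18 skeletal muscle markers 1 fell, the mean being 6.35 to 10.26 in untreated mice and 5.65 to 9.41 in naive mice, and with that mean as a covariate the count of called smooth muscle genes was again 27. The Actb difference was 1.00 to 1.16 in untreated and 1.00 to 1.14 in naive mice, and with it as a covariate the count was also 27.

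The second question was which contractile genes differ when both agents are given. Against control IgG mice, 6 genes were higher and 1 was lower, or 21.9% of the 32, while 31.2% of all genes were called in that comparison (14.2% higher, 17% lower). The 6 were Ryr2 (0.49 ± 0.15), Itga8 (0.44 ± 0.14), Mrvi1 (0.37 ± 0.10), Synpo2 (0.33 ± 0.10), Myh11 (0.17 ± 0.05) and Myl9 (0.13 ± 0.05), all of which had fallen in untreated colitis. Their adjusted p ran from 0.0031 for Mrvi1 to 0.038 for Myl9 in limma. Atp2a2 was lower, at -0.09 ± 0.02. Pln had levels of 7.09, 9.73 and 10.53 in combination mice, against 6.69, 9.08 and 10.12 in control IgG mice, and its 0.61 ± 0.29 did not pass. Casq2 had 5.65, 7.87 and 8.79 in combination mice, against 6.76, 7.48 and 8.08 in control IgG mice, and its 0.35 ± 0.25 did not pass. In each of the 7 called genes the groups overlapped, as in all but 1 of the 12534 genes. With array weights the count was 13 instead of 7, and the 3 other probe sets of Synpo2 were at -0.29, -0.28 and -0.36 without passing, against 0.33 on its brightest. Over the 67 tested probe sets of the 32 genes, 12 were higher and 2 lower, with 29.7% of all probe sets called. Mylk, Cacna1c and Kcnma1 did not pass on their brightest probe sets. They were higher on others, Mylk at 0.17, Cacna1c at 0.36, and Kcnma1 at 0.28 and 0.19.

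The higher levels lay in experiment 10. There, in the fit by experiment, 15 genes were higher and 1 was lower in combination than in control IgG mice, with a median change of 0.18 and 9.69% of all genes called. In experiment 7, none was higher and Atp2a2 alone was lower, with a median of -0.03 and 19.8% of all genes called, and 20 of the 32 had a negative sign. Ryr2 in experiment 10 was 7.11, 7.25 and 7.85 in combination mice, against 5.87, 6.32 and 6.79 in control IgG mice, with no overlap, a change of 1.00 ± 0.21. In experiment 7 it was 6.07, 6.61 and 7.34 in combination mice, against 5.99, 6.76 and 7.51 in control IgG mice, a change of 0.04 ± 0.19. Itga8 was likewise apart in experiment 10, at 7.81, 8.09 and 8.28 in combination mice, against 6.78, 7.31 and 7.78 in control IgG mice, and mixed in experiment 7, at 6.83, 7.56 and 8.39 in combination mice, against 6.87, 7.50 and 8.03 in control IgG mice. These were the 2 genes of the 32 whose groups did not overlap in experiment 10, as for 1.24% of all genes in that direction. Untreated colitic mice of experiment 10 had Ryr2 at 6.48 to 7.51 and Itga8 at 7.27 to 7.91, and overlapped the combination mice in both. Control IgG against untreated mice of that experiment was at -0.43 ± 0.24 for Ryr2 and -0.40 ± 0.24 for Itga8, without passing. The other genes that were higher in combination than in control IgG mice of experiment 10 included Mrvi1 (0.67 ± 0.13), Synpo2 (0.60 ± 0.14), Lmod1 (0.52 ± 0.11) and Synm (0.51 ± 0.14). Dmpk (0.42 ± 0.11), Myh11 (0.32 ± 0.07), Pgm5 (0.26 ± 0.08) and Myl9 (0.25 ± 0.07) came next, and Acta2 (0.12 ± 0.03) had the smallest such change.

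Tested directly as the difference between the experiments, the effect was not separable gene by gene. None of the 32 passed after adjustment in limma, with 0.0319% of all genes called. An unadjusted p under 0.05 was found for 18 of the 32 and 1200 of the 12534 genes. The change was more positive in experiment 10 for 31, Ldb3 being the exception, with a median difference of 0.27 (all genes 0.02). The share of all genes with that sign was not computed. The 32 genes vary together within groups (median correlation 0.40), so these counts are not counts of independent results. The largest differences were those of Ryr2 (0.96 ± 0.29), Casq2 (0.69 ± 0.48) and Lmod1 (0.65 ± 0.15, adjusted p 0.062 in limma). The neutrophil marker mean was lower on average under the combination in both experiments, with overlapping ranges. In experiment 7 it averaged 8.74 (6.29 to 10.85) in combination and 10.35 (9.61 to 11.39) in control IgG mice. In experiment 10 it averaged 7.84 (5.58 to 10.43) in combination and 9.63 (8.45 to 10.67) in control IgG mice. The Actb difference averaged 1.05 ± 0.05 in combination and 1.06 ± 0.08 in control IgG mice of experiment 7 (SD, n = 8 each), and 1.24 ± 0.13 in combination and 1.11 ± 0.07 in control IgG mice of experiment 10 (SD, n = 7 each). With that difference as a covariate, the count of called genes over both experiments was again 7, and its part in the result was not tested further. The skeletal muscle mean was 5.34 to 8.99 in combination and 4.66 to 9.61 in control IgG mice of experiment 10. The pancreas marker mean averaged 8.60 ± 3.95 in combination and 2.68 ± 1.51 in control IgG mice of experiment 7 (SD, n = 8 each). In experiment 10 it averaged 7.74 ± 3.94 in combination and 9.05 ± 3.77 in control IgG mice (SD, n = 7 each). Its part in the result was not tested.

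**Figure D4:**
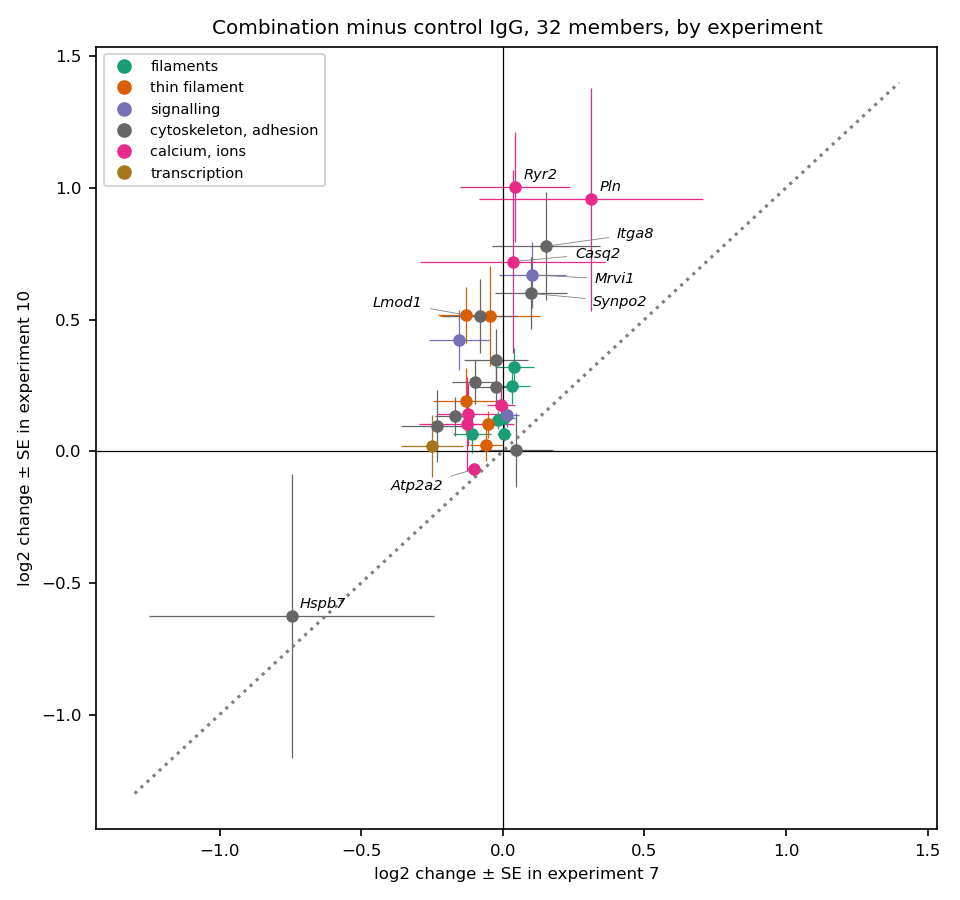
Log2 change ± SE in combination against control IgG mice for each of the 32 genes in experiment 7 (x axis) and in experiment 10 (y axis), coloured by role; the dotted line marks equal changes. All genes but Ldb3 lie above the line, with Ryr2 at 0.04 and 1.00.

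Set against naive mice, combination mice still had 19 genes lower and 1, Atp2a2, higher, with a median of -0.37 and 25.3% of all genes called (13.3% higher, 12% lower). The falls were led by Kcnmb1 (-0.84 ± 0.15), Itga8 (-0.74 ± 0.18), Smtn (-0.58 ± 0.18), Dmpk, Synm and Synpo2 (each -0.46), Cacna1c and Pdlim3 (both -0.45), Des (-0.44 ± 0.12) and Cnn1 (-0.42 ± 0.11). Myocd, which did not pass in untreated mice, was lower here, at -0.39 ± 0.11 (adjusted p 0.0046 in limma), with 9.49, 10.17 and 10.57 in combination mice, against 10.16, 10.44 and 10.81 in naive mice. The lowest combination values, 9.49 and 9.65, came from the 2 arrays of experiment 7 that ran with experiment 10. Pln and Casq2 did not pass, at -0.79 ± 0.36 and -0.69 ± 0.31, their combination mice ranging from 7.09 to 10.53 and from 5.65 to 8.79. Only Myh11, Myl9 and Itga8 of the 32 had every combination mouse below every naive mouse and none every one above, as for 0.957% and 1.17% of all genes. Inside experiment 10, where both groups are present, 9 genes were lower and 2 higher, the median was -0.23 and 29.4% of all genes were called. Myocd did not pass there, at -0.23 ± 0.11 (adjusted p 0.13 in limma), and untreated mice of that experiment were also at -0.23 ± 0.14 against naive mice. Fitted on these arms alone, the count over both experiments was 13 instead of 20. This comparison and the one with untreated mice share the naive mice, and the one with control IgG shares the combination mice.

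Neither single agent gave a call among the 32 genes when the experiments were fitted together in limma. TNFR-Ig against control IgG called none, with 4.08% of all genes called. An unadjusted p under 0.05 was found for 4 of the 32 and 2631 of the 12534 genes. Ldb3 was nearest at -0.26 ± 0.10, then Actg2 at -0.13 ± 0.06 and Atp2a2 at -0.04 ± 0.02. TNFR-Ig against untreated mice, a comparison free of antibody on both sides, also called none, with 3.01% of all genes called. There 2 of the 32 and 2214 of the 12534 genes had an unadjusted p under 0.05, with Filip1l at -0.18 ± 0.07, Cacna1c at 0.24 ± 0.11 and Dmpk at 0.17 ± 0.11 nearest. Anti-TWEAK against control IgG called none, with 2.8% of all genes called. Of the 32 genes 7 had an unadjusted p under 0.05, as had 2099 of the 12534 genes. The nearest were Atp2a2 at -0.05 ± 0.02, Flna at 0.13 ± 0.06 and Myh11 at 0.12 ± 0.06. The control antibody itself, against untreated mice, called none, with 10.3% of all genes called. Here 3 of the 32 and 3357 of the 12534 genes had an unadjusted p under 0.05, with Atp2a2 at 0.05 ± 0.02, Kcnma1 at -0.12 ± 0.05 and Dmpk at 0.22 ± 0.11 nearest. Inside experiment 10 that comparison called Kcnma1 lower, at -0.20 ± 0.06 (adjusted p 0.029 in limma, 9.95% of all genes called).

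For anti-TWEAK, the calls within an experiment lay in experiment 10. There, 6 genes were higher under anti-TWEAK than under control IgG and Atp2a2 was lower, with 8.64% of all genes called: Ryr2 (0.65 ± 0.22), Synpo2 (0.53 ± 0.14), Mrvi1 (0.50 ± 0.13), Lmod1 (0.45 ± 0.11), Myh11 (0.27 ± 0.08) and Myl9 (0.25 ± 0.07). In experiment 7 none of the 32 passed in limma (1, Casq2, had an unadjusted p under 0.05, and 0% of all genes were called). Of the differences between the experiments that of Lmod1 passed, at 0.56 ± 0.15 (adjusted p 0.035 in limma, 1.72% of all genes called). Lmod1 had 9.27, 9.69 and 9.94 in anti-TWEAK mice and 8.85, 9.23 and 9.73 in control IgG mice of experiment 10, and 8.64, 8.95 and 9.57 in anti-TWEAK mice and 8.91, 9.16 and 9.32 in control IgG mice of experiment 7. Within each experiment, anti-TWEAK and combination mice were set against the same control IgG mice. The neutrophil mean ranged from 6.80 to 11.13 in anti-TWEAK and from 8.45 to 10.67 in control IgG mice of experiment 10, and from 6.89 to 11.48 in anti-TWEAK and from 9.61 to 11.39 in control IgG mice of experiment 7. The Actb difference averaged 1.18 ± 0.05 in anti-TWEAK and 1.11 ± 0.07 in control IgG mice of experiment 10 (SD). In experiment 7 it averaged 1.04 ± 0.06 and 1.06 ± 0.08. The pancreas marker mean averaged 4.07 ± 3.12 in anti-TWEAK and 9.05 ± 3.77 in control IgG mice of experiment 10 (SD). In experiment 7 it averaged 5.62 ± 4.34 and 2.68 ± 1.51. Their part in the calls within experiment 10 was not tested. For TNFR-Ig and for the control antibody no difference between experiments passed (0% and 0.016% of all genes called). In each, 2 of the 32 genes had an unadjusted p under 0.05, as had 1301 and 1656 of the 12534 genes.

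**Figure D5:**
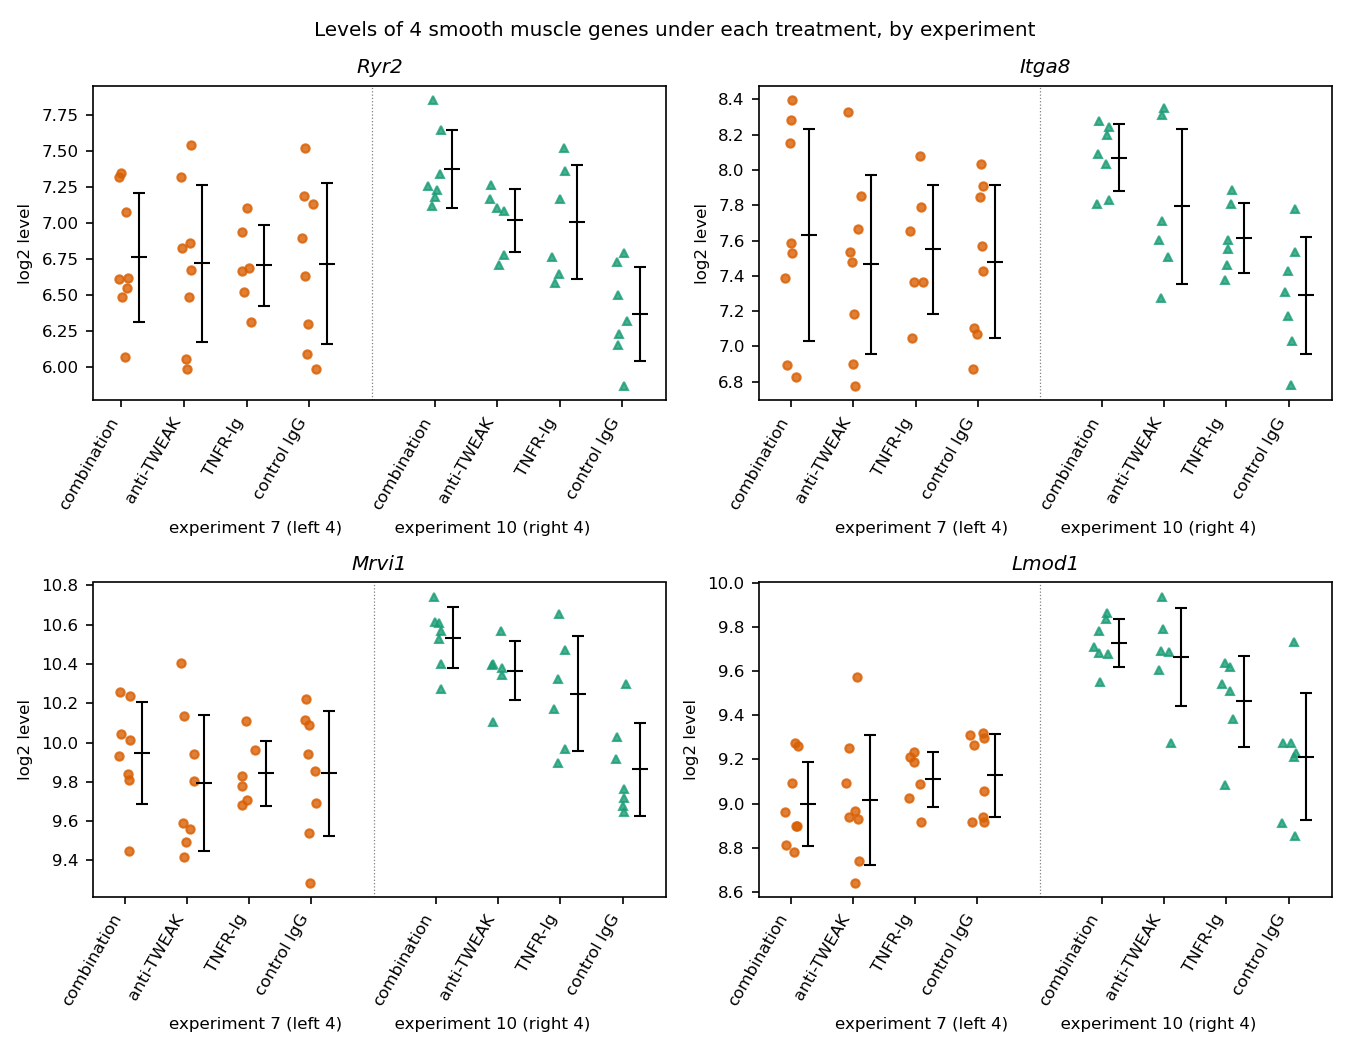
Log2 levels of Ryr2, Itga8, Mrvi1 and Lmod1 on each array under the 4 treatments, experiment 7 left (circles) and experiment 10 right (triangles) of the dotted line, with the mean ± SD beside each group. In experiment 10 Ryr2 and Itga8 of all 7 combination mice lie above those of all 7 control IgG mice, and in experiment 7 the groups overlap.

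Against TNFR-Ig mice, combination mice differed in 2 of the 32 genes, or 6.25%, near the 6.71% of all genes. TNFR-Ig mice received no antibody, so blocking TWEAK and receiving any antibody cannot be told apart in this comparison. Casq2 was higher than in TNFR-Ig mice, by 0.93 ± 0.26 (adjusted p 0.023 in limma), with 5.65, 7.87 and 8.79 in combination mice, against 5.45, 7.01 and 7.46 in TNFR-Ig mice. Mylk was higher by 0.11 ± 0.03 (adjusted p 0.042 in limma). In all, 6.71% of genes were called there (2.21% higher, 4.5% lower), and the 6 neutrophil markers were all lower in combination mice. The count was 10 with array weights and 5 without the 2 combination arrays of the other run, and the called genes depended on the experiment: inside experiment 7, Atp2a2 and Myocd were the called genes, both lower, and inside experiment 10 there were 5 others, all higher, namely Synm, Acta2, Tpm1, Dmpk and Filip1l (5.84% and 2.63% of all genes called). Against anti-TWEAK mice none of the 32 and none of the 12534 genes passed in limma (3 and 2258 had an unadjusted p under 0.05), with Hspb7 at -0.93 ± 0.37, Myocd at -0.19 ± 0.09 and Mylk at 0.07 ± 0.03 nearest. Inside experiment 7, however, Myocd (-0.39 ± 0.11) and Atp2a2 (-0.08 ± 0.02) were lower in combination than in anti-TWEAK mice, with 9.52% of all genes called. In experiment 10 none of the 32 and 0% of all genes were called. Of the combination arrays of experiment 7, 2 ran with experiment 10. These 2 arrays had the lowest levels of that group in both genes. Myocd was 9.65 and 9.49 on them, against 9.88 to 10.57 on the others. Atp2a2 was 13.93 and 13.92 on them, against 13.94 to 14.07 on the others. Their part in the Myocd and Atp2a2 calls inside experiment 7, against TNFR-Ig and against anti-TWEAK mice, was not tested. The departure of the combination from the sum of the single agents called none, with 0.319% of all genes called. For it 4 of the 32 and 1792 of the 12534 genes had an unadjusted p under 0.05, with Casq2 at 1.06 ± 0.36, Ldb3 at 0.38 ± 0.14 and Hspb7 at -1.35 ± 0.54 nearest. That contrast carries the control antibody, which TNFR-Ig mice did not receive.

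On the wider list of 40 tested contraction genes, 5 were higher and 4 lower in combination than in control IgG mice. That is 22.5% of the list, below the 31.2% of all genes. The higher ones were Gucy1a1 (0.35 ± 0.08) and Gucy1b1 (0.26 ± 0.07), the subunits of the nitric oxide receptor guanylate cyclase, Prkg1 (0.35 ± 0.11), Cacna2d1, a calcium channel subunit (0.23 ± 0.07), and Ppp1r12a, a myosin phosphatase subunit (0.08 ± 0.03). Gucy1a1, Gucy1b1 and Prkg1 had fallen in untreated mice by 0.53, 0.39 and 0.78. The lower ones were Mrtfa, an SRF partner (-0.15 ± 0.05), Itgb1, Tpm4 and Rhoa. Against naive mice, 15 of the 40 were lower and 5 higher in combination mice (50% called, all genes 25.3%), Sgcd again leading at -1.14 ± 0.24 and Zyx rising by 0.50 (SE 0.12).

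Mice of one group differed from each other in a shared direction. After each group's mean within its experiment was removed, the 496 pairs among the 32 genes had a median correlation of 0.40 over the 72 arrays, against 0.01 for pairs of all genes, with 186 pairs above 0.5 and 69 below 0. These points share the array, its normalisation and the amount of muscle in the piece of tissue. Myl9, Myh11 and Pgm5 had the highest median correlation with the other genes, at 0.61, 0.60 and 0.60. Atp2a2 (-0.07), Hspb7 (-0.03), Kcnma1 (0.07) and Cald1 (0.10) had the lowest, and these are also 4 of the 6 genes that did not fall in untreated mice. Ldb3 and Pdlim3 were the only genes whose correlation with the skeletal muscle mean was above 0.5, at 0.54 both, and Ldb3 had a median of 0.22 with the other smooth muscle genes. The within-group SD was 0.80 for Pln and 0.66 for Casq2, against 0.04 for Tpm1 and Atp2a2 and 0.06 for Acta2, each on its own probe set.

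Within groups, 26 of the 32 genes correlated negatively with the neutrophil mean over the 72 arrays, among them Smtn (-0.60), Casq2 (-0.59), Synpo2 (-0.59), Pln (-0.59) and Synm (-0.51). The share of all genes with a negative sign was not computed, and the 32 genes correlate with each other, so the count of 26 cannot be set against a background. The relation with the neutrophil mean was tested for 8 of the genes. Over the 64 colitic mice, as deviations from the group means, Pln correlated with the neutrophil mean at a Pearson r of -0.60 and a Spearman rho of -0.63 (permutation test, adjusted p 0.00016 and 8e-05 over 16 relations, 2-sided, raw p 1e-05 for each, the smallest that 100000 permutations can give). It was -0.53 without the 2 mice farthest from the median, -0.69 in experiment 7 (34 mice) and -0.51 in experiment 10 (30 mice). Casq2 had r = -0.61 and rho = -0.62 (permutation test, adjusted p 0.00024 and 8e-05), -0.52 without the 2 farthest mice, and -0.62 and -0.68 in the 2 experiments. Myh11 had r = -0.48 and rho = -0.37 (permutation test, adjusted p 0.0035 and 0.036), -0.35 without the 2 farthest, and -0.59 and -0.36. Acta2 passed by r (-0.37, adjusted p 0.0080) but not by rho (-0.30, adjusted p 0.076; permutation tests), and r was -0.26 without the 2 farthest mice. Actg2, Des, Kcnmb1 and Myocd did not pass with the neutrophil mean (r between -0.18 and 0.18), and none of the 8 genes passed with the skeletal muscle mean (r between -0.02 and 0.29; adjusted p of 0.076 or more).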

How the data were processed

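The deposited table holds 1 log2 value per probe set and array for 45101 probe sets, already normalised by the authors. The log2 scale and a floor near which 37.5% of values lie (within 0.1) were read from the deposited values. The submitters' processing notes name the normalisation methods RMA and GCRMA beside R 2.11.1 and limma 3.4.5, with no role for either method. No correction was added. Probe sets were named from the platform annotation: 34945 had 1 gene symbol, 932 several, 9160 none and 64 were controls. Each gene was read from its probe set of highest mean, and genes whose mean was below the 40th percentile of probe set means (2.42) were left out.

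The members and gene lists were chosen with earlier results of these data known. Each comparison was a contrast in limma 3.58.1 (R 4.3.3) on all 72 arrays with terms for group and experiment, with p-values adjusted by Benjamini-Hochberg over 12534 genes and a call at 0.05. A fit with each group in each experiment gave values within experiments and the differences between them. The scripts were tested on simulated data with known changes. Any member could be named, and all tested members are given for untreated against naive mice. Most other comparisons give up to 10 called members of largest change, or up to 3 of smallest p where fewer than 3 were called. Some further members are named beside these, and some called genes of the wider contraction list. The first naive array is called a combination array in one label field and naive in its title and source name, and was kept as naive. Sequences are from RefSeq (GRCm38.p6), and other tools were Python 3.11.15, numpy 2.4.6, pandas 2.3.3, scipy 1.17.1 and matplotlib 3.10.9. Precision is limited by the number of arrays per group. Alternatives covered the dim filter, the probe set rule, the experiment term, a replicate block, each experiment alone, array weights, trend and robust moderation, the arms compared alone, and arrays left out. The covariates for the Actb difference and skeletal muscle, and the test of every probe set, were chosen after seeing the data.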

Additional observations from a re-analysis of the deposited data

Results flagged for a closer look

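For 8 genes read mouse by mouse, 1 mouse lay far from the rest of its group and experiment in 6 of 88 such groups, where chance gives about 1 in 20, or 4.4. Actg2 was 14.09 in combination mouse 1 of experiment 10, the next lowest being 14.36. Myh11 was 13.73 in untreated mouse 1 of experiment 7, the next highest being 13.58. Casq2 was 8.41 in naive mouse 4, the next lowest being 8.67. Kcnmb1 was 5.90 in TNFR-Ig mouse 1 of experiment 7 and 6.35 in TNFR-Ig mouse 8 of experiment 10, with 5.56 and 5.41 next. Myocd was 9.72 in anti-TWEAK mouse 3 of experiment 7, the next lowest being 10.25. The effect of anti-TWEAK against control IgG on Lmod1 differed between the experiments by 0.56 (experiment 10 minus experiment 7), the one member past the test of that difference. It was not called when dim genes were kept in the fit.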

How the results depend on the processing

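The 27 genes called in untreated against naive mice numbered 23 to 29 under the alternatives run and 26 to 27 with single mice left out. Of the single-gene results, 1177 kept their direction and side of the threshold, 48 lost the call, 25 gained it and 5 changed sign. All 5 came from reading each gene on its most variable probe set: Atp2a2 (-0.44), Synpo2 (0.19) and Tpm2 (0.22) in untreated against naive mice, Synpo2 in combination against control IgG mice (-0.36) and Atp2a2 in combination against naive mice (-0.45).

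Fitted on experiment 10 alone, 20 genes were called for combination against control IgG (7 in the fit of both experiments, 1 in experiment 7 alone), 13 for anti-TWEAK against control IgG (0), 10 for combination against TNFR-Ig (2, and 0 in experiment 7 alone), 5 for control IgG against untreated (0), 4 for TNFR-Ig against control IgG (0) and 2 for TNFR-Ig against untreated (0). With array weights the same comparisons with control IgG gave 13 for the combination, 1 for anti-TWEAK and 1 for TNFR-Ig. Array weights also gave 10 for combination against TNFR-Ig, 1 for combination against anti-TWEAK, 3 for the departure from additivity, and 13 and 2 for the experiment differences of anti-TWEAK (1) and the combination (0). Trend and robust moderation called 1 gene for control IgG against untreated and 1 for anti-TWEAK against control IgG. Combination against TNFR-Ig gave 1 gene without the dim filter, on the most variable probe set, without the experiment term and on the arms compared alone, and was 5 without the 2 combination arrays of the other run, which also gave 1 call for additivity. Combination against naive was 13 on the arms compared alone. The experiment difference of anti-TWEAK was 0 without the dim filter and 2 on the most variable probe set. Leaving out 1 mouse gave 0 to 1 for TNFR-Ig against untreated, the 1 being without untreated mouse 3 of experiment 10, and 0 for control IgG against untreated. The cause of these differences was not tested.

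Replicate numbers did not pair the mice: deviations of same-numbered mice had a median correlation of -0.06 in experiment 7 and 0.01 in experiment 10. With the replicate block the counts were 27 for untreated against naive, 21 for combination against naive, 6 for combination against control IgG, 1 for combination against TNFR-Ig and 1 for the experiment difference of the combination. Group sizes of 8 limit the comparisons with untreated and naive mice, and values at the floor of the table have no order.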
